A study of Mus musculus with 30 samples.

Results

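Integrins and laminins are the receptors and ligands through which a cell holds on to the matrix around it. The 40 genes described here, of 57390 genes and unplaced loci in the deposited table, were chosen by symbol: every integrin alpha subunit (Itga) and beta subunit (Itgb), every laminin chain (Lama, Lamb and Lamc), the nidogens Nid1 and Nid2, and perlecan (Hspg2). RNA sequencing measured them in 30 cultures of 3T3-L1, a preadipocyte line from mouse embryos whose fibroblast-like cells become adipocytes when given hormones. The 6 groups of 5 cultures were controls and cultures given quizalofop-p-ethyl (QpE), a herbicide ester, at 50 µM, each labelled 6 h, 24 h or 12 days. All groups, the controls included, were kept in a differentiation medium with fetal serum, insulin and the phosphodiesterase inhibitor IBMX. The medium schedule in the labels' protocol adds up to fewer days than the label of 12 days, which is used as given. All cultures come from 1 line and nothing states that they were started separately, so p-values measure the spread between these cultures, which may be technical.

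An integrin is a pair of an alpha and a beta chain in the plasma membrane. The alpha chain largely sets the ligand: Itga5 and Itgav bind RGD motifs in fibronectin and vitronectin, Itga1, Itga2, Itga10 and Itga11 bind collagens, and Itga3, Itga6 and Itga7 bind laminins. Laminins are trimers of an alpha, a beta and a gamma chain that polymerise into the basement membrane, where nidogens and perlecan tie them to collagen IV. A preadipocyte sits in a fibronectin and collagen rich matrix, whereas a mature fat cell is wrapped in a basement membrane, and a replacement of Itga5 by Itga6 is known from textbook accounts of adipogenesis.

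Levels are FPKM, fragments per unit of transcript length, scaled to library depth, so genes can be compared per length. Tests used limma on log2(FPKM + 1), with a call at an adjusted p under 0.05 over all 14616 genes that reached 1 FPKM in at least 5 libraries. Estimated depth was 9.5 to 17.5 M fragments per library. The summed level of 10 adipocyte markers was 146 to 278 FPKM in the control cultures at 6 h, 161 to 499 at 24 h and 1039 to 5826 at 12 days. With QpE it was 121 to 270 at 6 h, 366 to 522 at 24 h and 3436 to 8151 at 12 days. At 12 days the cultures numbered 3 and 4 stood apart in both arms, with adipocyte marker sums of 1243 and 1039 FPKM in controls and 3436 and 3461 with QpE, against at least 4540 and 7613 in the other cultures of each arm. QpE culture 5 at 12 days stood apart in its fibroblast markers, whose sum of 272 FPKM lay below the 844 to 1099 of the other QpE cultures and the 1957 to 2441 of the controls. Results at 12 days are therefore also given without these cultures. Differences in bulk RNA cannot tell a change in the share of fat cells from a change in RNA per cell.

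Of the 40 genes, 18 passed the filter and were tested. The other 22 were low in every group, and several define other tissues. The leukocyte alpha subunits Itgal, Itgam, Itgax, Itgad and Itgae had group means of at most 0.579 FPKM (Itgad), and their partner Itgb2 at most 0.415 FPKM. Itga4 was listed at 0 in all 30 libraries, and Itga9, Itga2, Itga8 and Itga10 had group means of at most 0.127 FPKM (Itga10). Among beta subunits Itgb4, the hemidesmosome subunit that pairs with Itga6 in epithelia, reached a group mean of 0.298 FPKM. Itgb6 and Itgb8, partners of Itgav that activate TGF-beta, reached group means of 0.0162 and 0.0638 FPKM. Itgb7 reached a group mean of 0.938 FPKM, mostly from 2 control cultures at 12 days, number 3 at 2.08 and number 4 at 2.03 FPKM. Lama1, Lama2, Lama3, Lama5 and Lamc3 had group means of at most 0.159 FPKM, with Lama2, the main laminin alpha chain of muscle, at the top. Lamb3, a laminin beta chain of epithelia, reached a group mean of 1.26 FPKM in the QpE cultures at 12 days. Beside it, the sum of 5 epithelial markers was 0.274 to 0.785 FPKM in QpE cultures 1 to 4 of that time and 5.87 FPKM in QpE culture 5 alone. It was 0 to 0.112 FPKM in the controls of that time, and Epcam was listed at 0 in all libraries. The part of epithelial genes in this was not tested. No endothelial marker of 6 reached a group mean of 1 FPKM.

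The subunits present would make a short list of receptors and 1 main laminin. Lama4, the laminin alpha chain of vessel, nerve, muscle and fat basement membranes, made up 99.8% ± 0.0559 (SD, n = 5) of the summed laminin alpha chain FPKM in the control cultures at 6 h and 99.8% ± 0.0762 in the QpE cultures at 12 days. Lamb1 held 90.7% to 96.6% of the laminin beta chain FPKM as a group mean, and Lamc1 99.4% to 99.9% of the gamma chain FPKM. Itgb1, the common partner of the collagen, laminin and Itga5 subunits, held 63.6% to 73.9% of the beta subunit FPKM, and Itgb5, a vitronectin receptor partner of Itgav, most of the rest with 19.8% to 31.8%. Nid1 had the highest level of the 40 genes, with group means of 227 to 365 FPKM.

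The shares of the alpha subunits differed with time, and are given as a description, with no test. In the control cultures Itga5 held 52.1% ± 3.66 (SD, n = 5) of the summed alpha subunit FPKM at 6 h, 42.6% ± 3.59 at 24 h and 29% ± 11.2 at 12 days. Itga6 held 14% ± 1.92, 13.7% ± 2.87 and 35.2% ± 17.2 at these times. With QpE, Itga5 held 55.8% ± 3.49, 45.1% ± 1.66 and 19.2% ± 9.41, and Itga6 13.8% ± 1.18, 16.5% ± 1.31 and 51.7% ± 13.8. The ratio of Itga6 to Itga5 was 0.232 to 0.293 in the 10 cultures at 6 h and 0.213 to 0.453 in the 10 at 24 h. At 12 days it was 2.73, 2.41, 0.453, 0.356 and 1.78 in control cultures 1 to 5, and 5.05, 4.21, 1.27, 1.23 and 6.03 in the QpE cultures. Itga6 thus exceeded Itga5 in 3 of 5 control cultures and in all 5 QpE cultures at 12 days, and the 2 controls below 1 were those numbered 3 and 4. Itga7 held 0.814% ± 0.305 in the 6 h controls, 6.91% ± 2.26 in the 12 day controls and 13.3% ± 5.19 in the 12 day QpE cultures. Itgav went from 24.2% ± 2.83 to 16.6% ± 6.16 and 9.53% ± 5.24 in the same groups.

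**Figure D1:**
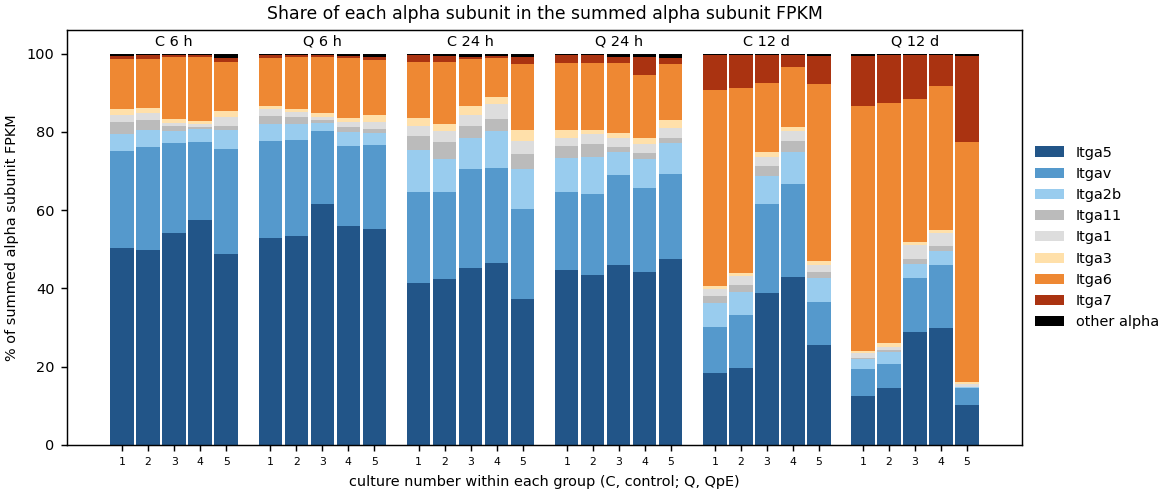
Stacked bars show the share of each alpha subunit in the summed alpha subunit FPKM (percent) for each of the 30 cultures, grouped as control (C) or QpE (Q) at 6 h, 24 h and 12 days (d). Itga5 and Itgav (blues) fill most of each bar at 6 h and 24 h, and Itga6 and Itga7 (orange, red) fill more at 12 days, least so in cultures 3 and 4.

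Control cultures were compared first over the early course. From 6 h to 24 h, 10 of 18 tested members changed, 4 higher and 6 lower, beside 10.5% of all tested genes called higher and 12% called lower. Groups did not overlap for 3 higher and 6 lower members, beside 7.96% and 10.3% of all tested genes. The median difference was -0.13 (log2) over the members and 0.00 over all genes. The fibronectin receptor subunits and Nid1 fell and Itgb5 rose. Of the laminin chains, the fall of summed Lamc1 lay mostly in a short transcript, and the rise of Lama4 in a long assembled one.

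Itga5, whose pair with Itgb1 is the main fibronectin receptor, was at 71.5, 74.9, 111, 135 and 65.0 FPKM in control cultures 1 to 5 at 6 h and at 41.1, 41.9, 46.1, 46.5 and 32.0 FPKM at 24 h. Every 24 h culture was below every 6 h culture, and the log2 difference was -1.07 ± 0.20 (SE, n = 5; adjusted p = 0.0041). Itgav was at 35.5, 39.6, 47.2, 46.5 and 35.6 FPKM at 6 h and at 23.3, 21.8, 26, 24.3 and 19.7 FPKM at 24 h, again with no overlap, a log2 difference of -0.80 ± 0.10. Itgb1 was at 214, 216, 223, 226 and 196 FPKM at 6 h and at 161, 159, 167, 168 and 156 FPKM at 24 h, with no overlap and a log2 difference of -0.40 ± 0.05 (adjusted p = 0.000589). These are 3 subunits that together form receptors for fibronectin and vitronectin. Itga6 was at 17.9, 19.2, 32.4, 38.5 and 16.8 FPKM at 6 h and at 14.2, 15.6, 12.0, 9.92 and 14.5 FPKM at 24 h, also without overlap, a log2 difference of -0.80 ± 0.23 (adjusted p = 0.0318). Cultures 3 and 4 were the highest at 6 h and the lowest at 24 h for Itga6. Its call was lost without control culture 3 or 4 at 6 h or 1, 3 or 4 at 24 h, with an adjusted p of 0.052 to 0.0754.

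Itgb5 went the other way. It was at 69.4, 71.0, 56.5, 48.0 and 56.3 FPKM in control cultures 1 to 5 at 6 h and at 81.1, 78.2, 80.0, 84.2 and 81.3 FPKM at 24 h, with no overlap and a log2 difference of 0.43 ± 0.10 (adjusted p = 0.0106). Itga2b, known as the platelet fibrinogen receptor subunit, rose by 0.39 ± 0.09 from a mean of 6.68 to 9.05 FPKM. Only 16.7% of its FPKM at 24 h lay in the full length protein coding transcript, and most lay in short noncoding transcripts of its locus. Of 3 platelet lineage markers, Gp9 and Pf4 did not pass the filter and Ppbp fell, from a mean of 2.64 to 1.52 FPKM.

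Printed next are the 250 bases before the RefSeq start of the 3 receptor genes that fell together and of Itgb5, which rose, on build GRCm38.p6. They are written 5′ to 3′ on the gene's strand, and capitals mark GC boxes (GGGCGG on either strand). The windows are chr15:103366792-103367041 (Itga5, minus strand), chr2:83724147-83724396 (Itgav, plus), chr8:128685404-128685653 (Itgb1, plus) and chr16:33829415-33829664 (Itgb5, plus), each upstream of the named transcripts. An assembled Itgav transcript starts before its window, at chr2:83724095, and held 43.4% to 54% of the Itgav group means. The Itgav window is therefore not upstream of all Itgav transcripts.
Itga5: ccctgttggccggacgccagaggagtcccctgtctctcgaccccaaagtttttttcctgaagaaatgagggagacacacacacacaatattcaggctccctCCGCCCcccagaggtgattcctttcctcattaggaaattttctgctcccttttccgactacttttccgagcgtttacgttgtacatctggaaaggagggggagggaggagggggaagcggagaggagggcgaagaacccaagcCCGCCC
Itgav: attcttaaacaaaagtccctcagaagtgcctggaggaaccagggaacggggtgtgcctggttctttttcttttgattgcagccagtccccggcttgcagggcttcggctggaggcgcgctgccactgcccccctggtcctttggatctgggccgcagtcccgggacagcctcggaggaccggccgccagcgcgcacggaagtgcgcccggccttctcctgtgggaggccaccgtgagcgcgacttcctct
Itgb1: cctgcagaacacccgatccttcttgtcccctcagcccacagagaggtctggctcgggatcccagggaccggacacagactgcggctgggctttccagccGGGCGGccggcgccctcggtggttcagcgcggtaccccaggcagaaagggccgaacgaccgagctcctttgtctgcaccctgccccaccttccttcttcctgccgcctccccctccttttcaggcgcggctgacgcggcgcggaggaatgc
Itgb5: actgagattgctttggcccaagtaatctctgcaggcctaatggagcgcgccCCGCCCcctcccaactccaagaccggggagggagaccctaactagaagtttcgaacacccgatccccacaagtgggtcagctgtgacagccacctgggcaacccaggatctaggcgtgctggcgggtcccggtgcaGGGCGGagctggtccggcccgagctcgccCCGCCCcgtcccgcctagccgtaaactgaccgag
The RefSeq table held 13 windows for 12 of the 18 tested members. GC boxes were found in 8 of the 13, compared with 32.7% of all 32851 promoter windows of the same length. Those windows were not limited to genes that passed the filter, as the members did, so the shares are of unlike sets. Itga5 had 2, Itgb1 had 1, Itgb5 had 3 and Itgav had none. In the 13 windows, CCAAT was found in 3 (33.8% of all windows), while TATAAA (12.4%), the AP-1 element TGANTCA (6.75%) and the CArG box (1.47%) were found in none, each searched on both strands. GC box letters were thus present before genes that fell and before one that rose, and a match is a description of letters only.

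Among laminin chains, the call of Lamc1 turned on 1 short transcript and that of Lama4 on 1 long assembled transcript. Summed Lamc1 was at 129, 129, 143, 109 and 89.9 FPKM at 6 h and at 70.2, 75.3, 77.4, 70.8 and 68.5 FPKM at 24 h, with no overlap and a log2 difference of -0.70 ± 0.11 (adjusted p = 0.00197). A short coding transcript of 3 exons was at 62.8, 59.9, 65.8, 0.773 and 0.863 FPKM at 6 h and at 0 to 1.67 FPKM at 24 h. The full length transcript of 28 exons went from 80.9 ± 16.9 to 71.0 ± 3.28 FPKM and alone differed by -0.16 (adjusted p = 0.469), so the fall of Lamc1 was not seen in its main transcript. Lama4 was at 89.6, 91.1, 75.9, 69.8 and 99.4 FPKM at 6 h and at 107, 122, 113, 112 and 113 FPKM at 24 h, with no overlap and a log2 difference of 0.42 ± 0.09 (adjusted p = 0.00916). Of Lama4 FPKM, 96.0% at 6 h and 96.9% at 24 h lay in 1 assembled transcript without a gene name, joined to Lama4 as the named gene of its locus. That transcript has 38 exons and spans the named gene, and the fit of the most abundant transcript alone also called Lama4 higher. With named transcripts alone the difference was -0.23 (adjusted p = 0.596). The most abundant of these were retained intron transcripts, at control means of at most 1.28 FPKM at 6 h and 0.784 FPKM at 24 h. The rise was thus measured on the joined transcript, which that fit leaves out. Lamb1 had means of 104 ± 3.26 FPKM at 6 h and 115 ± 4.90 FPKM at 24 h (SD, n = 5), and its small difference of 0.14 ± 0.04 lost its call in 7 of 10 fits that left out 1 culture. Nid1 was at 313, 311, 365, 430 and 368 FPKM at 6 h and at 214, 215, 253, 245 and 210 FPKM at 24 h, with no overlap and a log2 difference of -0.64 ± 0.10 (adjusted p = 0.00159). The remaining tested members did not pass: Itgb3 went from a mean of 17.1 ± 7.63 to 10.7 ± 1.17 FPKM (adjusted p = 0.0930), Nid2 from 51.1 ± 7.37 to 60.4 ± 10.6 FPKM, and Hspg2 from 55.4 ± 3.62 to 50.3 ± 4.61 FPKM.

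The cytoplasmic machinery that links integrins to actin was examined from a list of 25 genes, 23 of them tested. In controls from 6 h to 24 h, 11 fell and 2 rose, with a median of -0.40 (log2). Beside the lists given here, 12% of all tested genes were called lower and 10.5% higher. Vinculin (Vcl) fell by 1.96 ± 0.24, alpha actinin 1 (Actn1) by 1.32 ± 0.16 and Hic-5 (Tgfb1i1) by 0.96 ± 0.13. Among 15 tested interstitial ligands of integrins, 7 fell and 4 rose. Ctgf fell by 3.65 ± 0.40, Cyr61 by 2.52 ± 0.29 and Thbs1, thrombospondin 1, by 1.87 ± 0.19. Of 13 other basement membrane genes, 3 fell, Col4a1 (-0.60 ± 0.10), Col18a1 (-0.46 ± 0.11) and Col4a2 (-0.40 ± 0.10), and 2 rose.

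From 24 h to 12 days in control cultures, the laminin receptor subunits Itga6 and Itga7 rose and the vitronectin receptor subunits Itgb3 and Itgb5 fell. Of 18 tested members, 3 rose and 4 fell, beside 13.1% of all tested genes called higher and 20.9% called lower (16.2% and 15.4% with median-ratio scaling). Called genes made up 34% of all tested genes in either direction. Groups did not overlap for 2 higher and 4 lower members, beside 9.96% and 16.7% of all genes. The median was -0.17 (log2) over the members and -0.08 over all genes. Over the same interval all 9 tested adipocyte markers rose.

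Itga7, a laminin receptor subunit best known from skeletal muscle, was at 1.73, 1.52, 0.746, 0.482 and 1.40 FPKM in control cultures 1 to 5 at 24 h and at 11.6, 10.7, 7.64, 3.08 and 8.71 FPKM at 12 days. The groups did not overlap, and the log2 difference was 2.04 ± 0.30 (SE, n = 5; adjusted p = 0.000661). At 12 days 22.2% of its FPKM in controls came from a short retained intron transcript, and the 2 full length coding transcripts held 37.0% and 40.6%. Itga6 was at 67.1, 60.3, 18.5, 15.3 and 55.6 FPKM at 12 days, of which 97.3% was 1 protein coding transcript. Cultures 1, 2 and 5 were above all 24 h controls, culture 3 was above their highest value of 15.6 FPKM, and culture 4 lay within their range. The difference was 1.42 ± 0.40 (adjusted p = 0.0213). Its adjusted p was 0.0507 to 0.0513 without control culture 4 at 24 h, or culture 2 or 5 at 12 days, and the difference was 2.13 with the 12 day cultures 3 and 4 left out. The levels of Itga6 followed those of the adipocyte markers in that cultures 3 and 4 were lowest in both. Des, the muscle intermediate filament gene and the only tested one of 5 smooth muscle or pericyte markers, had a mean of 1.09 FPKM at 24 h and 6.52 FPKM at 12 days, while Myh11, Cnn1, Rgs5 and Cspg4 stayed at group means of at most 0.364 FPKM. The part of such cells in the Itga7 result was not tested.

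Itgb3, which pairs with Itgav in the classical vitronectin receptor, was at 10.1, 9.80, 11.2, 12.5 and 9.87 FPKM at 24 h and at 5.16, 5.33, 8.37, 8.97 and 5.01 FPKM at 12 days in controls, with no overlap and a log2 difference of -0.66 ± 0.16 (adjusted p = 0.00945). Itgb5 was at 50.8, 53.2, 67.3, 69.0 and 55.6 FPKM at 12 days, all below the 24 h controls, a difference of -0.46 ± 0.09 (adjusted p = 0.00308). For both genes cultures 3 and 4 were the highest at 12 days. Itga3, the third laminin receptor subunit, went against Itga6 and Itga7: it fell by 0.50 ± 0.11, from 2.09 ± 0.330 to 1.19 ± 0.215 FPKM. Itga11, the fibrillar collagen receptor subunit of fibroblasts, was at 3.58, 4.29, 3.1, 3.05 and 3.28 FPKM at 24 h and at 2.08, 2.33, 2.79, 2.89 and 1.89 FPKM at 12 days. These groups did not overlap and differed by -0.40 ± 0.12 (adjusted p = 0.0240). That call was lost without control culture 1 or 2 at 24 h, or 1 or 5 at 12 days (adjusted p 0.0508 to 0.0561).

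Lamb1 was the laminin chain that rose in this interval, from 116, 118, 120, 112 and 108 FPKM at 24 h to 128, 133, 178, 177 and 127 FPKM at 12 days in control cultures 1 to 5. The groups did not overlap, and the difference was 0.35 ± 0.11 (adjusted p = 0.0312), lost in 6 of 10 fits that left out 1 culture. Cultures 3 and 4 were the highest. The same 2 cultures were high in Lamc1, at 76.7, 80.7, 156, 141 and 77.4 FPKM, and in Nid1, at 182, 178, 357, 383 and 170 FPKM. Neither gene passed the test (adjusted p = 0.0992 and 0.862). For Lamc1 the excess lay in the 3 exon transcript, at 71.9 and 56.5 FPKM in cultures 3 and 4 and 0.326 to 1.56 in the others, while the full length one was at 74.9 to 84.2 FPKM in all 5. Cultures 1, 2 and 5 thus had less Nid1 than any 24 h control, and cultures 3 and 4 more. With cultures 3 and 4 left out, 24.5% of all genes were called lower and 15.6% higher, and 9 members were lower in place of 4, namely Itga5, Itgav, Itgb1, Nid1 and Hspg2 beside Itga3, Itga11, Itgb3 and Itgb5, and the same 3 were higher. Lama4 (120 ± 10.9 FPKM at 12 days), Nid2 (55.0 ± 8.35), Hspg2 (45.6 ± 8.74) and Itga1 (2.42 ± 0.265), a collagen IV receptor subunit, did not pass with all cultures.

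**Figure D2:**
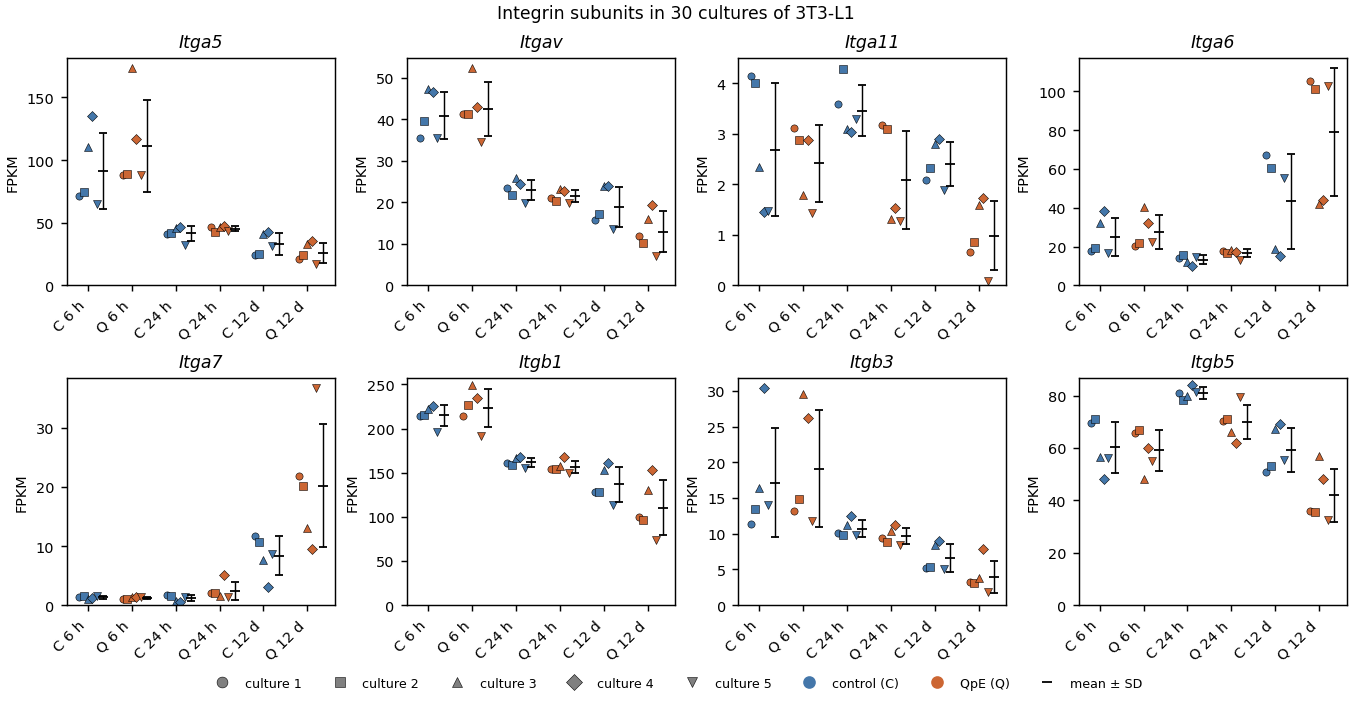
FPKM of 8 integrin subunits in each culture (points; shape gives the culture number, blue is control, C, and orange QpE, Q), with the mean ± SD of 5 cultures beside each group at 6 h, 24 h and 12 days (d). Itga5, Itgav and Itgb1 step down between 6 h and 24 h, Itga6 and Itga7 are high at 12 days, and cultures 3 and 4 lie apart from 1, 2 and 5 for Itga6 at 12 days.

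Other basement membrane genes moved in both directions between 24 h and 12 days in controls: 5 of 13 tested rose and 4 fell. Of all tested genes, 13.1% were called higher and 20.9% lower, which is to be read beside each list given here. Smoc1 rose by 1.68 ± 0.57, Col15a1 by 0.89 ± 0.27 and Col4a1, a chain of the collagen IV network to which nidogens bind, by 0.71 ± 0.13. Tinagl1 (-0.88 ± 0.28) and Npnt, nephronectin (-0.87 ± 0.27), had the largest falls. In the adhesion machinery 11 of 23 fell and 3 rose. Parva, alpha parvin, fell by 0.71 ± 0.06 and Tns3, tensin 3, by 0.69 ± 0.07, whereas Itgb1bp1, which binds the Itgb1 tail, rose by 0.54 ± 0.10. Of 15 interstitial ligands 3 fell, Tgfbi, Vcam1 and Fbn1, and 1 rose, Thbs1.

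In the QpE cultures the interval from 24 h to 12 days was tested in the same way, on other libraries than the control comparison. Cultures of the same number deviated together between the arms at 12 days, so this is not an independent repeat. Itga6 and Itga7 rose and 8 members fell, of 18, beside 16.9% of all tested genes called higher and 25.8% called lower (21.5% and 20.7% with median-ratio scaling). The called share in either direction was 42.7%. Groups did not overlap for 2 higher and 7 lower members, beside 13.3% and 20.2% of all genes. The median was -0.43 (log2) over the members and -0.11 over all genes. The 8 that fell were Nid2, Itgb3, Itga2b, Itga5, Itgav, Itgb5, Hspg2 and Itgb1.

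Itga6 was at 17.9, 16.8, 18.1, 17.2 and 13.3 FPKM in QpE cultures 1 to 5 at 24 h and at 105, 101, 42.0, 43.9 and 103 FPKM at 12 days. Every 12 day culture was above every 24 h culture, and the rise on the log2 scale was 2.07 ± 0.28 (SE, n = 5; limma adjusted p = 0.000262). Itga7 was at 2.12, 2.00, 1.54, 5.08 and 1.34 FPKM at 24 h and at 21.8, 20.2, 13.0, 9.55 and 36.7 FPKM at 12 days, with no overlap and a difference of 2.59 ± 0.35. The high 24 h value of culture 4 came with a 2 exon assembled transcript joined to Itga7, which held 34.4% of that group's mean. Itga5 was at 46.8, 42.5, 46.5, 47.2 and 43.7 FPKM at 24 h and at 20.8, 24.0, 33.1, 35.8 and 17.1 FPKM at 12 days, with no overlap and a difference of -0.82 ± 0.18 (adjusted p = 0.00406). Itga6 was thus below Itga5 in every QpE culture at 24 h and above it in every one at 12 days.

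Itgav went from 21.1, 20.4, 23.3, 22.8 and 19.9 FPKM to 11.9, 10.2, 16.1, 19.4 and 7.05 FPKM, below the range of the 24 h cultures, with a difference of -0.76 ± 0.22. Itgb3 went from 9.35, 8.86, 10.4, 11.2 and 8.41 FPKM to 3.20, 3.12, 3.77, 7.81 and 1.81 FPKM, a difference of -1.21 ± 0.25. Itgb5 went from 70.2, 71.1, 66.1, 62.0 and 79.5 FPKM to 35.9, 35.7, 56.8, 48.2 and 32.6 FPKM, a difference of -0.75 ± 0.15. All 3 vitronectin receptor subunits were lower at 12 days with no overlap, and for each of them cultures 3 and 4 were the highest of the 12 day cultures. Itgb1 went from 154, 154, 158, 168 and 150 FPKM to 99.8, 96.5, 130, 153 and 73.5 FPKM. Its groups overlapped in culture 4, and its difference of -0.54 ± 0.17 (adjusted p = 0.0262) had an adjusted p of 0.0508 to 0.0569 without QpE culture 3 or 4 at 24 h, or 1 or 2 at 12 days.

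Among the linkers, Nid2 went from 60.6, 61.8, 44.3, 40.5 and 50.9 FPKM at 24 h to 33.2, 36.8, 16.6, 18.1 and 9.86 FPKM at 12 days, a difference of -1.27 ± 0.31 (adjusted p = 0.00776). Hspg2 went from 50.4, 44.0, 45.3, 44.1 and 58.5 FPKM to 29.1, 33.9, 33.3, 35.8 and 25.6 FPKM, a difference of -0.61 ± 0.12 (adjusted p = 0.00188). Neither pair of groups overlapped. Itga2b went from a mean of 7.94 ± 1.40 to 3.49 ± 1.67 FPKM. In contrast the laminin chains did not pass: Lama4 was at 110 ± 7.63 and 108 ± 24.3 FPKM, Lamb1 at 122 ± 10.4 and 131 ± 24.1 FPKM, and Lamc1 at 89.2 ± 22.4 and 120 ± 44.9 FPKM (adjusted p = 0.815, 0.607 and 0.287). Nid1 was at 271 ± 47.4 and 242 ± 127 FPKM. With cultures 3 and 4 of 12 days left out, 12 members were lower, beside 28.4% of all genes, the further 4 being Itga1, Itga11, Lama4 and Nid1.

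Of the adhesion machinery 11 of 23 genes fell in the QpE cultures over this interval and 2 rose, with Tns3 (-1.44 ± 0.21), Tgfb1i1 (-1.11 ± 0.21) and filamin A, Flna (-1.08 ± 0.19), the largest falls. Beside the lists given here, 25.8% of all tested genes were called lower and 16.9% higher. Tns1, tensin 1, rose by 0.98 ± 0.23. Of 15 interstitial ligands 8 fell and none rose, with a median of -1.36. Vcam1 fell by 1.94 ± 0.35, Thbs2 by 1.86 ± 0.41 and Tgfbi by 1.79 ± 0.28. Of 13 other basement membrane genes 6 fell and 2 rose, Col4a1 (0.39 ± 0.13) and Dag1, dystroglycan, a laminin receptor outside the integrin family (0.36 ± 0.08).

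**Figure D3:**
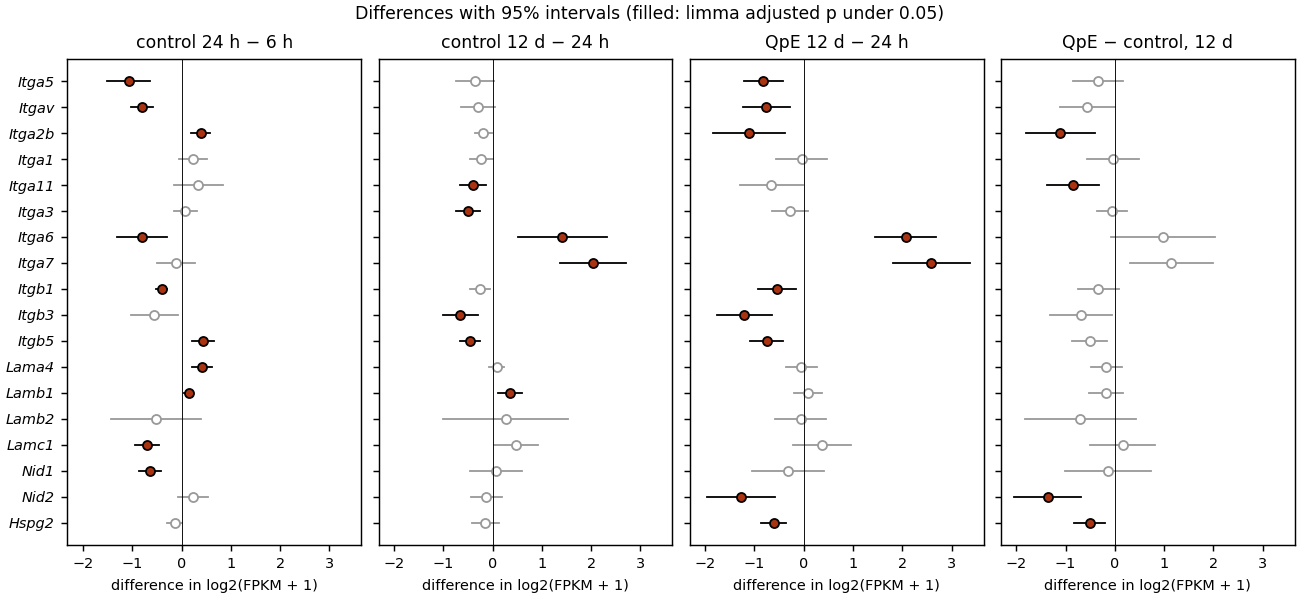
Differences in log2(FPKM + 1) of the 18 tested members with 95% intervals (points and lines) for 4 comparisons; filled points have a limma adjusted p under 0.05. Itga6 and Itga7 are the largest rises from 24 h to 12 days in both arms, and the QpE panel at 12 days shows 4 filled points, all below 0.

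QpE against control at 12 days called 5.06% of all tested genes higher and 7.16% lower, or 3.13% and 9.07% with TPM scaling. Of 18 tested members none was called higher and 4 were called lower: Nid2, Itga2b, Itga11 and Hspg2. These 4 were also the members whose groups did not overlap, beside 8.26% of all genes with QpE below control. The median difference was -0.34 (log2) over the members and -0.00 over all genes, and 15 of 18 were below 0. Cultures of the same number deviated together between the arms at this time, though only 3 of 5 in each arm correlated best with their own number. The numbers were also used as a block. In that fit 2 members were higher, Itga6 and Itga7, and 8 lower, the 4 above with Itgav, Itgb1, Itgb3 and Itgb5, beside 8.78% and 10.2% of all genes.

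The basement membrane linkers Nid2 and Hspg2 fell. Nid2 was at 58.7, 61.8, 48.7, 43.6 and 62.1 FPKM in control cultures 1 to 5 and at 33.2, 36.8, 16.6, 18.1 and 9.86 FPKM with QpE. All QpE cultures were below all controls, and the difference was -1.36 ± 0.31 (SE, n = 5; adjusted p = 0.0223). Its adjusted p was 0.0538 without control culture 2, 0.0541 without control culture 5, 0.0567 with both cultures numbered 5 left out and 0.131 with those numbered 3 and 4 left out. Hspg2 was at 38.2, 42.5, 55.1, 54.8 and 37.5 FPKM in controls and at 29.1, 33.9, 33.3, 35.8 and 25.6 FPKM with QpE. There too the groups did not overlap, and the difference was -0.51 ± 0.14 (adjusted p = 0.0418), a call lost in 9 of 10 fits that left out 1 culture, all but that without QpE culture 4 (adjusted p up to 0.0937). It was also lost without the cultures numbered 5 (0.0745) or 3 and 4 (0.0963). Most Hspg2 FPKM lay in 2 assembled transcripts, and the most abundant transcript alone differed by 0.39 (adjusted p = 0.720). These 2 and the named transcript have nearly the same span, with 97 or 98 exons and 14187 to 14310 bases. In control culture 2 the most abundant one was at 2.89 FPKM and the named one at 36.1 FPKM. How reads were split between such similar transcripts was not tested. Nid1, by contrast, was at 177, 171, 364, 391 and 107 FPKM with QpE, against 182, 178, 357, 383 and 170 FPKM in controls. It differed by -0.14, with a 95% interval from -1.01 to 0.73, and by number the 2 arms were close except in culture 5.

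Of the matrix receptor subunits, Itga11 was at 2.08, 2.33, 2.79, 2.89 and 1.89 FPKM in controls and at 0.652, 0.859, 1.59, 1.73 and 0.0912 FPKM with QpE. The groups did not overlap, and the difference was -0.84 ± 0.24 (adjusted p = 0.0455). Itga2b was at 8.22, 7.43, 7.40, 8.33 and 7.59 FPKM in controls and at 4.12, 4.72, 4.05, 4.00 and 0.552 FPKM with QpE, a difference of -1.10 ± 0.32 (adjusted p = 0.0486). QpE culture 5 was lowest in both, and without the cultures numbered 5 Itga2b differed by -0.76 (adjusted p = 0.00597) and Itga11 by -0.70 (adjusted p = 0.0756). Without those numbered 3 and 4 neither was called (adjusted p = 0.159 for Itga2b and 0.0644 for Itga11). Each was called in 2 of 10 fits that left out 1 culture, Itga11 without QpE culture 3 or 4 and Itga2b without QpE culture 2 or 5. With a pseudocount of 0.1 both calls were lost (adjusted p = 0.0939 for Itga11 and 0.0888 for Itga2b), and Itga2b also lost its call with TPM scaling (0.0544) and median-ratio scaling (0.0516). The full length coding transcript of Itga2b went from 1.70 ± 0.323 to 0.603 ± 0.186 FPKM. Beside these falls, the fibroblast marker sum was 272 to 1099 FPKM with QpE and 1957 to 2441 in controls. Of the tested fibroblast markers 4 of 7 fell, beside 7.16% of all tested genes. Their part in the result was not tested.

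The laminin receptor subunits Itga6 and Itga7 were higher with QpE in every pair of cultures of 1 number. Itga6 was at 67.1, 60.3, 18.5, 15.3 and 55.6 FPKM in controls and at 105, 101, 42.0, 43.9 and 103 FPKM with QpE, which overlap across numbers because cultures 3 and 4 were low in both arms. The difference was 0.97 ± 0.48, with an adjusted p of 0.217, and of 0.0167 with the culture number as a block. With cultures 3 and 4 left out it was 0.75 (adjusted p = 0.0377). Itga7 was at 11.6, 10.7, 7.64, 3.08 and 8.71 FPKM in controls and at 21.8, 20.2, 13.0, 9.55 and 36.7 FPKM with QpE, a difference of 1.15 ± 0.38, with an adjusted p of 0.0770, and of 0.0196 with the block. Without QpE culture 4 its adjusted p was 0.045. The ratio of QpE to control within a number was 1.57 to 2.88 for Itga6 and 1.70 to 4.21 for Itga7. Beside these, the adipocyte marker sum was also higher with QpE in all 5 numbers, and Des was at a mean of 6.52 FPKM in controls and 13.2 FPKM with QpE. Their part in the result was not tested.

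The vitronectin and fibronectin receptor subunits had lower means with QpE, and none of them passed in the fit of these 10 cultures without the block. Itgb5 was at 50.8, 53.2, 67.3, 69.0 and 55.6 FPKM in controls and at 35.9, 35.7, 56.8, 48.2 and 32.6 FPKM with QpE, lower in all 5 numbers, with a difference of -0.51 ± 0.16 and an adjusted p of 0.0660, or 0.0188 with the block. Itgav was at 15.8, 17.2, 24.0, 23.8 and 13.6 FPKM in controls and at 11.9, 10.2, 16.1, 19.4 and 7.05 FPKM with QpE, a difference of -0.56 ± 0.25 with an adjusted p of 0.184, or 0.0216 with the block. Itgb3 (-0.68 ± 0.28) had an adjusted p of 0.147, or 0.0299 with the block, and Itgb1 (-0.34 ± 0.19) one of 0.278, or 0.0499 with the block. Itgav, Itgb1 and Itgb5 also passed with all 30 libraries in 1 fit. That fit shares 1 spread over groups of unequal spread, and called 11.9% of all genes higher and 14.2% lower. Without QpE culture 3 Itgb5 passed too (adjusted p = 0.035), as it did without the cultures numbered 3 and 4 (0.0395) and with TPM scaling (0.0279). Without QpE culture 4 Itgb3 passed (0.0318). Itga5, at 24.6, 25, 41.0, 42.9 and 31.1 FPKM in controls and 20.8, 24.0, 33.1, 35.8 and 17.1 FPKM with QpE, differed by -0.33 ± 0.23, with an interval from -0.84 to 0.18, and an adjusted p of 0.0944 with the block. In the ratio of Itga6 to Itga5, the difference of Itga6 was thus one that passed with the block and that of Itga5 one that did not, and the 2 were not tested against each other.

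**Figure D4:**
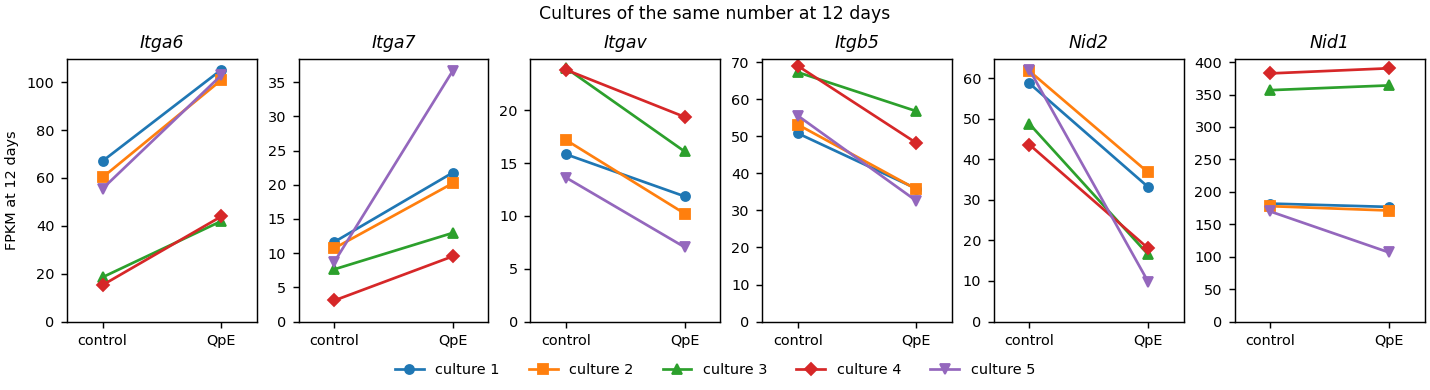
FPKM at 12 days in the control and QpE culture of each number (lines join the same number) for 6 members. Itga6 and Itga7 are higher with QpE on every line, Itgav, Itgb5 and Nid2 are lower on every line, and Nid1 separates cultures 3 and 4 from the others in both arms.

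No laminin chain passed at 12 days, with or without the block. Lama4 differed by -0.17 (95% interval -0.49 to 0.15), Lamb1 by -0.18 (-0.53 to 0.16) and Lamc1 by 0.16 (-0.51 to 0.82). By number, Lamb1 was lower with QpE in all 5 pairs, by -0.209 to -0.145, with an adjusted p of 0.0825 with the block. QpE culture 5 had summed Lamc1 at 126 FPKM beside control culture 5 at 77.4 FPKM, but 58.0 FPKM of it was the 3 exon transcript, and the full length one was at 67.9 FPKM with QpE and 76.5 FPKM in the control. In summed Lamc1, cultures 1 and 2 were at 75.9 and 75.2 FPKM with QpE and at 76.7 and 80.7 FPKM in controls. Lamb2, the beta chain of synaptic, renal and muscle laminins, could not be measured well. Its named transcripts ran from 1.96 to 26.2 FPKM over the 30 cultures, and a pair of assembled transcripts that run from its start into Usp19, the next gene (chr9:108479857-108502335 and chr9:108479864-108502335, GRCm38), held from 3.00 to 23.5 FPKM. With all transcripts that start at Lamb2, its means were 23.1 ± 3.62 FPKM in controls and 16 ± 3.39 FPKM with QpE at 12 days, which were not tested. Itga1 (2.42 ± 0.265 and 2.52 ± 1.35 FPKM) and Itga3 (1.19 ± 0.215 and 1.11 ± 0.36 FPKM) did not pass. In Itga1 the QpE cultures split, with 3 and 4 at 4.01 and 3.92 FPKM and the others at 1.16 to 1.95 FPKM.

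**Figure D5:**
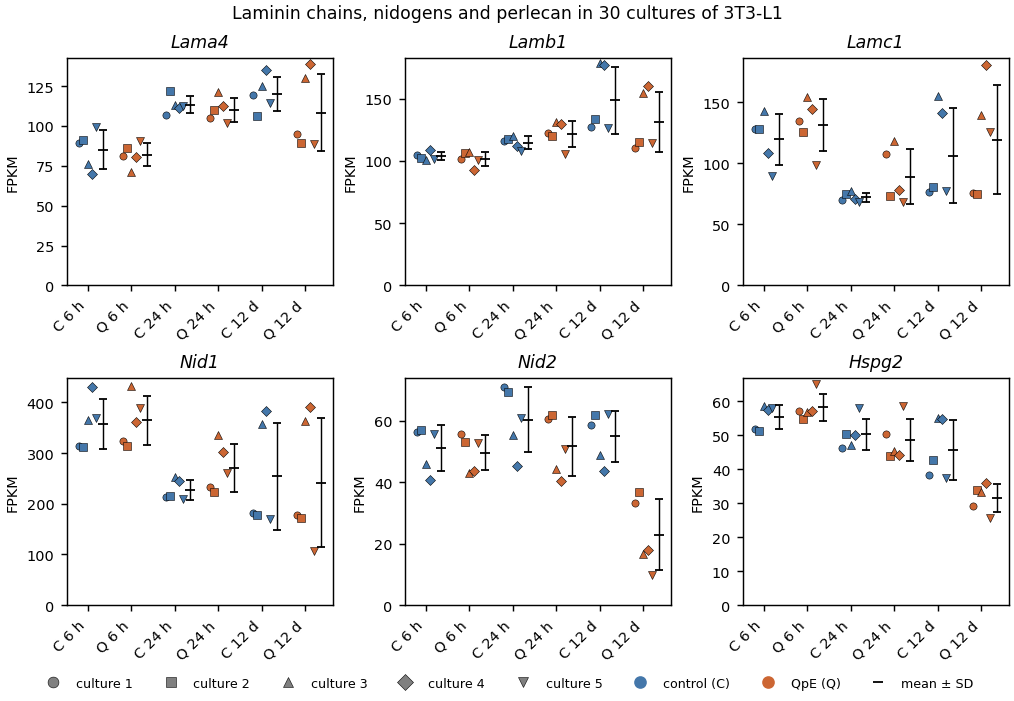
FPKM of 3 laminin chains, the nidogens and perlecan in each culture (points; shape gives the culture number, blue is control, C, and orange QpE, Q), with the mean ± SD of 5 cultures beside each group at 6 h, 24 h and 12 days (d). Nid2 and Hspg2 are lowest in the QpE cultures at 12 days, and Nid1 is high in cultures 3 and 4 at 12 days in both arms.

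Interstitial ligands of these receptors were examined beside them. At 12 days with QpE, 8 of 15 tested interstitial ligands were lower and none higher, with a median of -1.26. Of all tested genes, 7.16% were called lower and 5.06% higher. The block gave 11 lower ligands, in a fit that called 10.2% of all genes lower and 8.78% higher. Without cultures 3 and 4 none was called, in a fit that called 0.342% of all genes lower. Postn, periostin, a ligand of Itgav integrins, fell by 1.92 ± 0.51, Col3a1 by 1.88 ± 0.47 and Col1a1 by 1.87 ± 0.40. Of the adhesion machinery 7 of 23 were lower and none higher, including Tns3 (-0.95 ± 0.19), Tln2, talin 2 (-0.86 ± 0.13), and Tgfb1i1 (-0.85 ± 0.23), with 4 lower when the cultures numbered 5 were left out and none when those numbered 3 and 4 were. The fit without the cultures numbered 5 called 4.05% of all genes lower. Of 13 other basement membrane genes Sparc, a collagen binding matricellular protein, was the 1 that passed (-0.998 ± 0.27), with 4 lower and 1 higher under the block.

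QpE against control at 6 h and 24 h gave no call among the members. At 6 h limma called 0 of 18 members, beside 0.00684% of all tested genes, and 0 of 18 had an unadjusted p under 0.05 (2.75% of all genes). The fit of all 30 libraries also called none. At 24 h it again called 0 of 18, beside 0% of all genes, with 4 of 18 at an unadjusted p under 0.05 (8.79% of all genes), or 1 in the fit of all 30 libraries. The groups overlapped for all 18 members at 24 h, beside 0.842% of all genes with every QpE culture above and 1.07% with every one below. Those 4 were Itgb5 (-0.22, 95% interval -0.36 to -0.07), Itga11 (-0.58, -1.02 to -0.15), Itga6 (0.32, 0.04 to 0.59) and Itga1 (-0.23, -0.45 to -0.01). Itga11 at 24 h was at 3.18, 3.09, 1.32, 1.54 and 1.28 FPKM with QpE, so the low values were those of cultures 3, 4 and 5. Itga5 differed by 0.28 at 6 h, with an interval from -0.27 to 0.83, and Itga6 by 0.16, with an interval from -0.43 to 0.76, so differences of these sizes were not detectable there.

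Whether the effect of QpE differed between 12 days and 24 h was tested directly. Limma called 0 of 18 members, beside 1.01% of all genes, and 3 of 18 (Nid2, Hspg2 and Itga2b) had an unadjusted p under 0.05 (17.3% of all genes). Nid2 came nearest, with an effect lower by 1.14 ± 0.36 at 12 days than at 24 h (-1.14, adjusted p = 0.104). It was called in the fit of all 30 libraries (adjusted p = 0.035) and without QpE culture 2 at 12 days (0.0338). The fit of all 30 libraries called 1.85% of all genes higher and 3.27% lower. Itga2b was called without QpE culture 5 at 12 days (0.0434) and Itgb5 without the cultures numbered 3 and 4 (0.0459). For Itga6 the difference was 0.65 (95% interval -0.43 to 1.74) and for Itga7 0.55 (-0.48 to 1.58), so an effect of QpE particular to the late time was not shown for either.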

How the data were processed

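RNA of 30 cultures was sequenced from directional poly(A) libraries. The authors deposited 1 table of FPKM per transcript, made with HISAT, HISAT2 and StringTie on build GRCm38, per the submitters' processing notes. The sources used here give neither versions nor whether strand was used. Raw counts were not used, so depth was estimated from the steps of low values and limits precision without an exact interval. The deposited columns of 10 libraries hold 11 tiny negative FPKM (lowest -7e-05), set to 0. Transcripts were summed per gene, and 10567 of 16259 unnamed assembled transcripts were joined to the named gene of their locus. A pseudocount of 1 and a filter of 1 FPKM in 5 libraries left 14616 genes. Tests were limma 3.58.1 (R 4.3.3) on log2(FPKM + 1), two-sided, with Benjamini-Hochberg adjustment over all tested genes, fitted on the compared groups, and tested on simulated data. A fold on this scale understates the change of low genes.

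The members and gene lists were chosen with earlier results of these data known. Every tested member is named with a group mean. Values of every culture are given for most called members, or for a fixed set of subunits whose groups do not overlap, at most 12 per comparison. Itga2b, Itga3 and Lamb1 are given as group means in some comparisons that called them. Of each other list at most 3 genes are given, those with the largest called differences. Culture numbers match the order of the sample titles, in which each run of 6 holds 1 culture of each group. Same-numbered control and QpE cultures at 12 days deviated together from their group means (correlations over genes 0.19, 0.188, 0.325, 0.38 and 0.157, each above the bound of 0.1). They were therefore taken as possible pairs there, from the data and not from the design. The main fit and its calls leave the numbers out, and the fit with the block is given beside it as an alternative. In each arm, 3 of 5 cultures at 12 days correlated best with the culture of their own number in the other arm. At 6 h 4 of 5 did, with the lowest correlation under the bound. Alternatives were other scalings, filters, pseudocounts, transcript sums, the block, a fit of all libraries and leaving out cultures. The fit of all libraries shares 1 spread over groups whose median SD over genes ran from 0.158 to 0.281. In earlier results of these data, such a shared spread gave many false calls on simulated data. That was not repeated here, where only the fit on the compared groups was run on simulated data. Leaving out the 12 day cultures numbered 5, or 3 and 4, was chosen after seeing the data. Of the untested members, 1 is not reported here.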

Additional observations from a re-analysis of the deposited data

Results flagged for a closer look

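Of 108 sets of 5 cultures (18 tested members in 6 groups), 4 held a culture whose gap to the nearest other was above Dixon's 95% critical value of 0.71 of the range on the scale log2(FPKM + 1). Chance flags about 1 in 20 sets. Itga2b in QpE culture 5 at 12 days was at 0.552 FPKM, with the nearest culture at 4.00 FPKM. Itga6 in QpE culture 5 at 24 h was at 13.3 FPKM, with the nearest at 16.8 FPKM. Hspg2 in QpE culture 5 at 6 h was at 64.9 FPKM, with the nearest at 57.2 FPKM. Itga2b in control culture 4 at 6 h was at 7.79 FPKM, with the nearest at 6.63 FPKM. On the FPKM scale 6 sets passed that value, the 4 above with Itga7 in the QpE cultures at 24 h, where culture 4 was highest at 5.08 FPKM, and Itgb3 in the controls at 6 h, where culture 4 was highest at 30.4 FPKM.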

How the results depend on the processing

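Counts of called members depended on the processing most at 12 days, where the share of all genes called also moved, and the cause was not tested. Shares of all tested genes called in the same direction are given in brackets. For QpE against control at 12 days the 0 higher (5.06%) became 2 with all 30 libraries in 1 fit (11.9%) or with the replicate block (8.78%). They became 1 without the cultures numbered 3 and 4 (0.698%), and 0 to 1 with 1 culture left out (2.26% to 4.51%). The 4 lower (7.16%) became 7 with all 30 libraries (14.2%), 8 with the block (10.2%), 2 with a pseudocount of 0.1 (6.23%) and 0 with no filter (1.31%). They became 1 with the most abundant transcript (1.98%), named transcripts (2.73%), or the cultures numbered 5 (4.05%) or 3 and 4 (0.342%) left out. With 1 culture left out they became 0 to 4 (3.24% to 7.04%). In controls from 6 h to 24 h the 4 higher (10.5%) became 2 with all 30 libraries (7.32%), 1 with the most abundant transcript (4.85%) and 2 with named transcripts (5.62%). From 24 h to 12 days the 3 higher in controls (13.1%) became 1 to 3 with 1 culture left out (10.7% to 13.7%). The 4 lower (20.9%) became 2 with all 30 libraries (19.6%), 1 with the most abundant transcript (10.8%) and 9 without cultures 3 and 4 (24.5%). In QpE cultures the 8 lower (25.8%) became 5 with no filter (9.78%) or with the most abundant transcript (16.2%). In the test between times the 0 lower (0.705%) became 1 with all 30 libraries (3.27%) or without cultures 3 and 4 (2.66%), and 0 to 1 with 1 culture left out (0.0137% to 2.4%). Hspg2 at 12 days reversed to 0.39 with the most abundant transcript, which has nearly the same span and length as the others of Hspg2. Lama4 from 6 h to 24 h reversed to -0.23 with named transcripts, which leave out its long assembled ones. In other comparisons the lowest correlation was under the bound of 0.1, at 0.0438 at 6 h and 0.038 at 24 h, so pairs were not taken. The block gave 4 higher (9.14%) and 6 lower (9.8%) in controls from 6 h to 24 h. It gave 3 (12.5%) and 4 (19.2%) from 24 h to 12 days, and not all were the same genes. In the earlier interval Itga6 and Lamb1 were lost and Itgb3 and Nid2 gained, and in the later one Itga11 was lost and Itgb1 gained. TPM scaling moved the mean over all tested genes by -0.09 (log2) between the arms at 12 days, and median-ratio scaling moved it by 0.10 between QpE at 12 days and 24 h. With the most abundant transcript alone, the calls of Itga2b, Itga6, Itgb5, Lamb1 and Lamc1 were lost in controls from 6 h to 24 h, those of Itga3, Itga11, Itgb5 and Lamb1 in controls from 24 h to 12 days, and those of Hspg2, Itga2b and Itgav in QpE cultures.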
